A study of Drosophila melanogaster with 6 samples.

Results

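Simba1 is a Drosophila microprotein. Where it lies along the genome of larval neural stem cells (NSCs) was mapped by fusing it to Dam, a bacterial enzyme that methylates the adenine of GATC sequences, and comparing the fusion with Dam alone. The regions described here are those at which a Dam-Simba1 peak of batch 1 and a Dam-Simba1 peak of batch 2 shared at least 1 bp on the chromosome arms 2L, 2R, 3L, 3R, 4 and X. There were 4489 such shared regions, out of 32264 merged regions in the Dam-Simba1 lists of both batches and 55460 in all 4 fusion lists of the series. No fold or q limit entered this choice beyond the authors' own peak calls.

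The series held 6 samples of larval brain in 3 groups (Dam-Simba1, Dam-Simba2 and Dam alone), with 1 library of each group in each of 2 batches. The fusion and the Dam control were UAS transgenes, and both groups shared the driver grh-Gal4 with tub-Gal80ts, the heat-sensitive repressor of Gal4. Embryos of both groups came from a collection window of 4 h. They stayed at 18 °C for 44 h and spent the last 24 h before dissection at 29 °C, where the repressor is inactive. The design thus directs Dam to brain cells that use grh-Gal4, and leaky expression outside them was not tested. The labels do not say how many brains entered a library or whether the batches came from separate crosses. A peak in this assay is not expression, so the NSC label could not be checked against marker genes. The title of the series places the work in Wingless (Wg) signalling during NSC reactivation.

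NSCs of the fly brain, also called neuroblasts, fall quiet at the end of embryonic life and enter the cell cycle again in the young larva, when feeding raises insulin signalling. In Wg signalling, the secreted ligand binds Frizzled receptors and the co-receptor Arrow. This stops the destruction complex from degrading Armadillo (beta-catenin), which then acts with the DNA-binding factor Pangolin (TCF) on target genes. In DamID, methylation spreads over the GATC sites near the place where the fusion protein sits, so a peak marks a neighbourhood and not a base. Dam alone methylates accessible DNA and serves as the background.

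After removal of repeated positions, the Dam-Simba1 libraries held 1191497 tags in batch 1 and 1506081 in batch 2, against 868080 and 1321104 tags in the Dam libraries. The authors' peak caller scaled the fusion library to the Dam library of its batch, which multiplied its reads by 0.729 in batch 1 and by 0.877 in batch 2. The 2 lists held 17254 and 21026 peaks, of which 16837 and 20002 lay on the 6 arms. Every value below is coverage at a peak's summit, in reads extended to the fragment length and scaled in this way. The Dam value beside it is lambda, the local Dam background at the same peak, recovered from the deposited fold. Paired values are those of batch 1 and then of batch 2. The 2 batches are on unlike scales, since their Dam libraries differed in depth. The average Dam value over the arms was 1.80 in batch 1 and 2.68 in batch 2. Equal coverage in both batches is thus not equal signal per tag. With 1 library per group and batch, and with peaks that the same contrast had chosen, no test of Dam-Simba1 against Dam was made.

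Shared regions took in 4528 batch 1 peaks, which is 26.9% of that list (95% exact Clopper-Pearson interval 26.2 to 27.6), and 4536 batch 2 peaks, which is 22.7% (22.1 to 23.3). Most peaks of either batch thus had no partner in the other. In 4403 of the 4489 regions (98.1%) exactly 1 peak of each batch met, and the median overlap was 316 bp. The regions were narrow: the median width was 587 bp, with quartiles of 462 and 765 bp and a range of 279 to 2093 bp. They covered 2891.5 kb, or 2.16% of the arms, and 380 of them (8.47%) were at least 1 kb wide.

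The summits of the 2 batches lay a median of 92 bp apart (quartiles 37 and 192 bp). They were within 50 bp of each other in 31.5% of regions, within 100 bp in 52.5%, within 250 bp in 83.3% and within 500 bp in 96.4%. In 27 regions both batches placed the summit on the same base, and the largest distance was 1265 bp. Overlap of narrow peaks by itself keeps summits close, so these distances are a description.

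**Figure D1:**
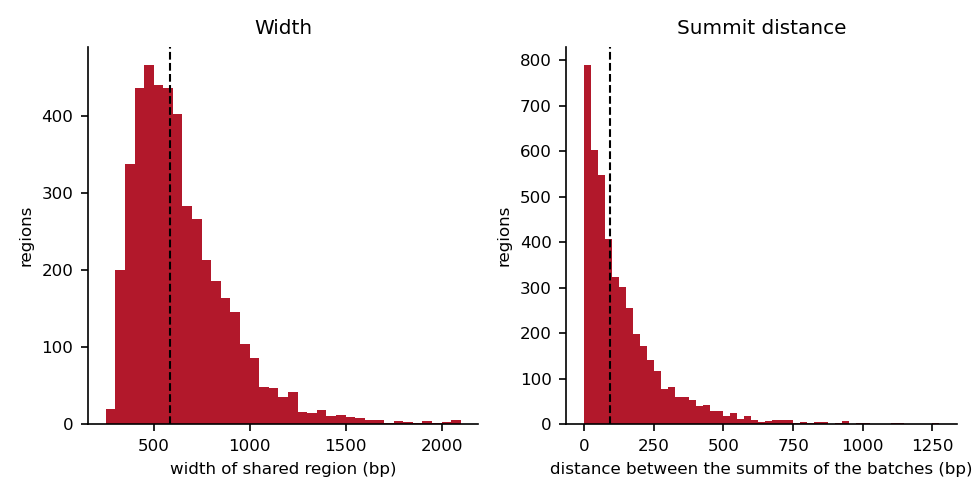
Histograms over the 4489 shared regions of width in bp (left) and of the distance in bp between the Dam-Simba1 summits of batch 1 and batch 2 (right), with dashed lines at the medians. Widths centre on 587 bp with a tail to 2093 bp, and summit distances fall away from 0 with a median of 92 bp.

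At the edge of the overlap rule, the region with the least overlap was on 3R (20729895 to 20730449), where 2 bp were common to both batches. Its Dam-Simba1 coverage was 2.91 in batch 1 and 5.26 in batch 2, against a Dam background of 0.248 and 1.17. Just outside the rule lay a peak of 1 batch in stumps, which encodes an adaptor of FGF signalling (3R, 14603075 to 14603515), next to a peak of the other batch with no common base. It had a Dam-Simba1 coverage of 5.10 against a Dam background of 1.16. An overlap of 50 bp or less was found in 47 regions, and 35 batch 1 peaks and 38 batch 2 peaks outside the regions had a peak of the other batch within 50 bp.

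Over all shared regions, the median Dam-Simba1 coverage was 8.74 in batch 1 and 11.4 in batch 2, against a median Dam background of 2.00 and 3.26. This corresponds to a median of 12 and 13 Dam-Simba1 reads under a summit, where the Poisson interval of a single such count runs from 6.20 to 21.0 and from 6.92 to 22.2. The Dam background is in unscaled Dam reads and is lower still, and its counting error is not shown. The authors' fold had a median of 3.05 in batch 1 and 2.66 in batch 2, and was higher in batch 1 at 2835 regions (63.2%). At least 3-fold in both batches was reached by 862 regions, and at least 5-fold in both by 14. Some of these 14 rested on a Dam background below the average over the arms. With lambda raised to that average, a setting chosen after seeing the data, the folds at Pde9 were 3.74 and 3.84. They stayed at 6.90 and 6.01 in the region nearest to CG5290 on 3L.

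Few regions were strong in both lists. The authors' q was 0.05 or lower in both batches at 1428 regions (31.8%) and 0.001 or lower in both at 194 (4.32%). A further 1368 regions had a q of 0.001 or lower in 1 batch alone, and 935 (20.8%) passed 0.05 in neither. Across the 4489 regions the Spearman correlation between batches was 0.619 for Dam-Simba1 coverage and 0.604 for the Dam background. For the fold it was 0.0649 and for the −log10 q 0.0940. Regions with high coverage in 1 batch thus tended to be high in the other, in the fusion and in Dam alike. The peaks were called on fusion against Dam with a q limit of 1, so few low values of q were cut off. The lowest folds in the regions were 1.32 in batch 1 and 1.28 in batch 2. How far the choice of peaks bears on the low correlations was not tested, and they say nothing of regions outside the lists. All 4 correlations run across regions of the same 4 libraries, share local read coverage, and are given without a p.

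**Figure D2:**
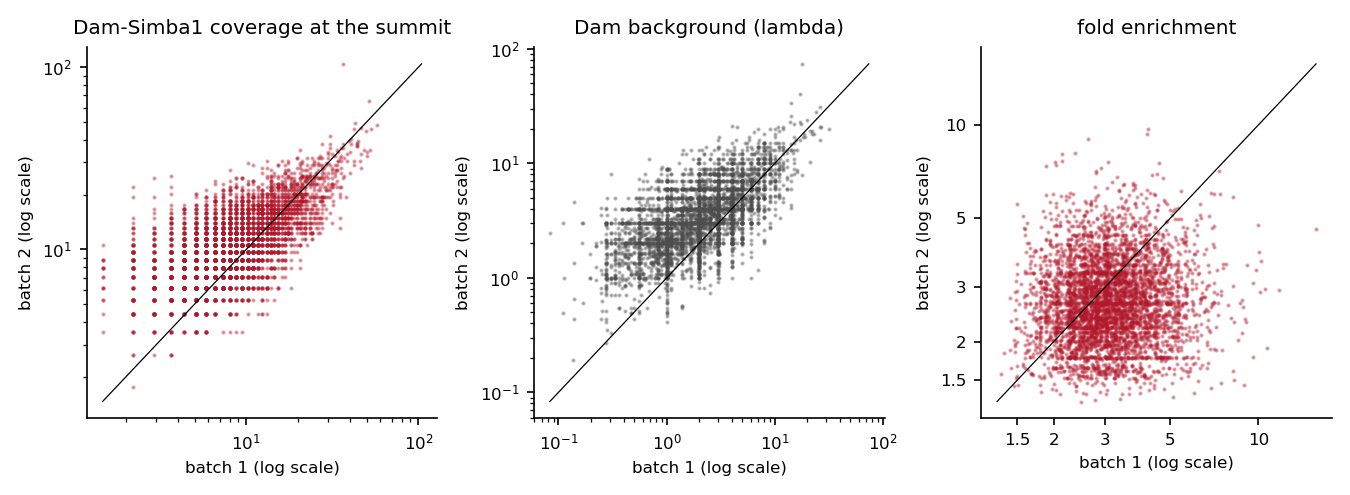
Each point is 1 of the 4489 shared regions, with batch 1 on the horizontal and batch 2 on the vertical axis (log scales), for Dam-Simba1 coverage at the summit (left), Dam background lambda (middle) and the authors' fold enrichment (right), and a line of equality. The first 2 clouds slope upward (Spearman 0.619 and 0.604) and lie more to the batch 2 side of the line, and the fold cloud is round (0.0649). Coverage and lambda are on the scale of each batch's own Dam library.

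The highest regions were ranked by the mean of their −log10 q percentiles within the 2 lists. The first lay between genes on 3L (17919454 to 17920097), 6888 bp from CG5290. Dam-Simba1 coverage there was 33.5 in batch 1 and 35.1 in batch 2, against a Dam background of 4.00 and 5.0, or 6.90- and 6.01-fold. The summits of the 2 batches were 5 bp apart.

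The second lay in bru1, which encodes an RNA-binding repressor of translation (2L, 12192826 to 12193401). Dam-Simba1 coverage was 35.7 and 28.1 in batches 1 and 2, against a Dam background of 5.0 and 4.90 (6.12- and 4.93-fold). The third lay in grh, the gene of the NSC transcription factor Grainyhead that also gives the driver its name (2R, 17831863 to 17832370). Here Dam-Simba1 coverage was 31.3 and 28.1, or 43 and 32 reads, against a Dam background of 4.65 and 5.25 (5.72- and 4.65-fold).

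The fourth lay in smog, the gene of a receptor that couples to G proteins (2L, 4856988 to 4857393), with Dam-Simba1 coverage of 33.5 and 21.9 against a Dam background of 4.71 and 4.00 (6.05- and 4.59-fold). The fifth was an intergenic region on X (66685 to 68202) with Dam-Simba1 coverage of 32.8 and 32.5 against a Dam background of 4.00 and 9.0. Its fold was 6.76 in batch 1 and 3.35 in batch 2. The sixth lay in bt, the gene of the giant muscle protein projectin (4, 736498 to 736862), with 24.0 and 28.95 for Dam-Simba1 against 3.60 and 6.0 for Dam.

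Of the 20 highest regions, 13 reached a gene (its span or within 1 kb) and 7 did not, beside 75.9% of all shared regions that reached one. Those with a gene included Liprin-gamma, a member of a family of synaptic scaffold proteins. Dam-Simba1 coverage there was 18.9 and 16.7 against a Dam background of 1.00 and 2.72 (9.97- and 4.75-fold). With lambda raised to the average over the arms, its batch 1 fold was 7.13. Those with a gene also included nAChRalpha6, a subunit of the nicotinic acetylcholine receptor, with 17.5 and 21.1 against 2.00 and 4.00 (6.16- and 4.41-fold). CG2269, CG31988, CG17193, mew (an integrin subunit, with CG15742), Pde9 (a cyclic nucleotide phosphodiesterase) and X11Lbeta (an adaptor protein, with CG12637) completed the genes apart from Ggamma30A.

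Ggamma30A, the gene of a G protein gamma subunit, held the highest fold of any shared region. Its Dam-Simba1 coverage was 16.0 in batch 1 and 14.9 in batch 2, against a Dam background of 0.0832 and 2.45. The 15.7-fold value of batch 1 rested on a Dam background close to the caller's minimum of 0.0826. With lambda raised to the average over the arms, a setting chosen after seeing the data, the folds were 6.09 and 4.32.

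Among the intergenic regions, one lay 2530 bp from Nlg1, the gene of a neuroligin (a cell adhesion protein of synapses), with Dam-Simba1 coverage of 12.4 and 15.8 against 0.832 and 1.36 for Dam. Its folds were 7.31 and 7.11, or 4.79 and 4.56 with lambda raised to the average over the arms. The region 2677 bp from CG13678 had the highest batch 1 coverage of the 20 (50.3, with 32.5 in batch 2) and also the highest batch 1 Dam background (16.0, with 8.43 in batch 2), and its folds were 3.02 and 3.55. Over the 20 regions the fold was higher in batch 1 in 17, the median summit distance was 39.5 bp, and a single region, that in CG17193, had summits more than 250 bp apart (261 bp).

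**Figure D3:**
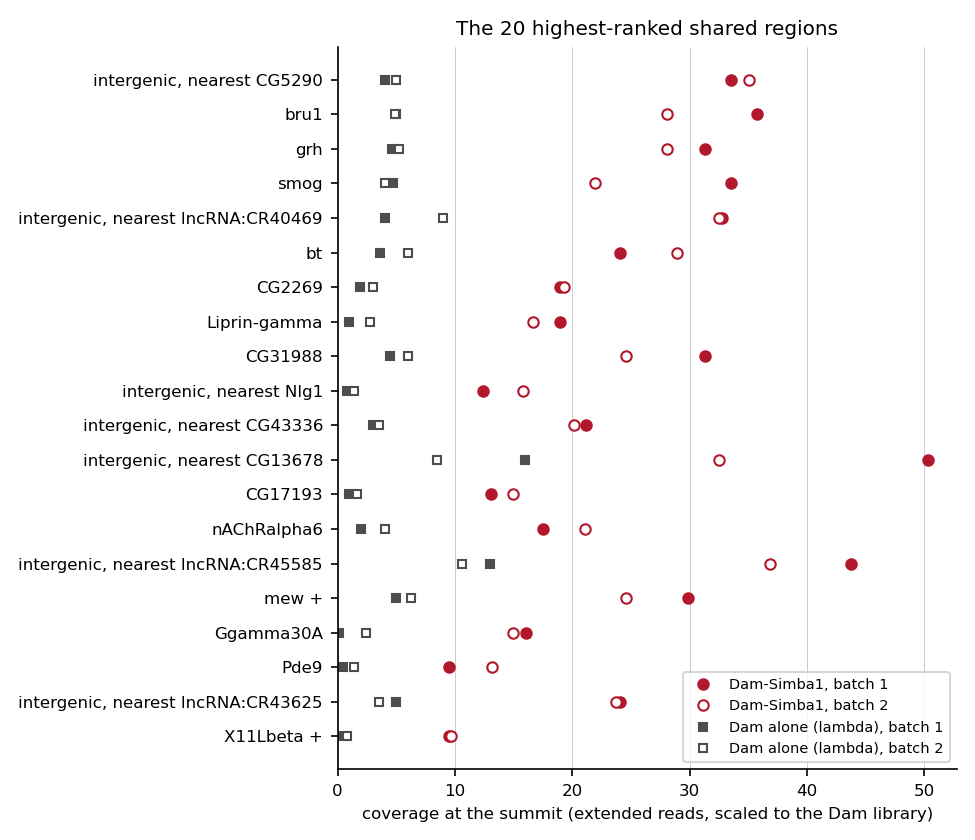
Coverage at the summit (extended reads, scaled to the Dam library) in the 20 highest-ranked shared regions, from the first at the top, with circles for Dam-Simba1 and squares for Dam background lambda, filled for batch 1 and open for batch 2. Dam-Simba1 ran from 9.47 to 50.3 in batch 1 and from 9.65 to 36.8 in batch 2, against Dam values of 0.0832 to 16.0 and 0.816 to 10.6.

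Some shared regions with a q of 0.001 or lower in both batches had summits within 4 bp of each other. The 10 with the closest summits that reached a gene were at apt (with CG42560 and CG42559), Nrt (with mus302), CG42853 (with CG7341), Coq9 (with LRR and CG30496), r-l (with dmrt93B), Ube3a, bs (with a tRNA gene), MED11 (with CG6885 and Nufip), CG31678 and side-VIII. At apt, which encodes a DNA-binding transcription factor, both summits were on the same base, with Dam-Simba1 coverage of 24.8 and 24.6 against Dam values of 4.15 and 7.62. At Nrt, the gene of the adhesion protein neurotactin, the summits were 2 bp apart, with 16.8 and 15.8 against 2.22 and 3.00. At bs, the gene of the fly serum response factor, they were 3 bp apart, with 19.7 and 17.5 against 5.0 and 4.08. At Ube3a, which encodes a ubiquitin ligase, the values were 22.6 and 24.6 against 7.0 and 5.71. The folds at these 4 genes lay between 2.95 and 5.52.

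The widest shared regions were built from a long peak of 1 batch and a short or offset peak of the other. The widest (2093 bp) lay in Ten-a, the gene of a teneurin that matches synaptic partners (X, 12182529 to 12184621). There the summits were 810 bp apart, with Dam-Simba1 coverage of 5.83 and 11.4 against Dam values of 0.915 and 1.63. The next were in lncRNA:CR44320 (2088 bp), in DIP-kappa (2085 bp), at tty and fliI (2081 bp), and 1537 bp from CG32237 on 3L (2059 bp). At DIP-kappa, a member of the Dpr-interacting protein family, 3 reads in batch 1 met 12 reads in batch 2. Of the 5, the last alone had a q of 0.001 or lower in both batches.

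The span of a gene held 3143 shared regions (70.0%). In a span or within 1 kb of it were 3407 (75.9%), which is the rule used for all genes below. By that rule, peaks found in 1 batch alone reached a gene in 79.3% (batch 1) and 73.0% (batch 2) of cases. The part of the arms that genes cover was not computed, so these shares are a description. A gene end lay in or within 1 kb of 1448 regions (32.3%). The reference gene table used here gives spans without strand or exons, so promoters and introns were not separated. Of the regions with a gene, 2362 had 1 gene and 1045 had several, up to 8. The other 1082 regions (24.1%) were a median of 5601.5 bp from the nearest gene, and 361 of them at least 10 kb.

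On the 5 long arms the density of shared regions ran from 28.3 to 36.7 per Mb. Shared regions numbered 36.7 per Mb on 2L, 32.7 on 2R, 35.3 on 3L, 33.3 on 3R and 28.3 on X, and 33.5 over all arms. The small chromosome 4 carried 75 regions, or 55.9 per Mb. Of its peaks, 27.3% were shared in batch 1 (95% exact interval 22.1 to 32.9) and 39.9% in batch 2 (32.8 to 47.3). Coverage in shared regions of chromosome 4 was high in the fusion and in Dam alike: medians were 13.1 and 16.7 for Dam-Simba1 against 3.00 and 6.0 for Dam.

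In windows of 100 kb the median number of shared regions was 3, and 71 of 1342 windows had none. The highest number, 12, was reached by 3 windows, which are named after their values were seen. The first, on 2L from 17500001, contains the microRNA gene mir-124, known from nervous systems of many animals, the transcription factor gene Oli, and Sytalpha, a synaptotagmin gene. Its other genes include mEFTs, Dhc36C, mir-287, several lncRNA genes and genes without a given name. The second, on 2L from 21900001, holds mostly genes without a given name. The third, on 3L from 15700001, holds comm, whose product keeps the axon guidance receptor Robo off the cell surface. These windows held 22 to 29 batch 1 peaks and 16 to 24 batch 2 peaks. Over all arms the lists held 125.8 batch 1 peaks and 149.4 batch 2 peaks per Mb, so the windows were also dense in peaks.

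Genes were then counted. A shared region was assigned to 3231 of 17684 genes on the arms, 18.3 percent of them, and to 2757 of 13922 protein-coding genes (19.8%). With both best peaks at a q of 0.05 or lower the share was 7.42 percent (1312 genes), and at 0.001 or lower 1.22 percent (215 genes). For comparison, 9042 genes (51.1 percent) had a batch 1 peak, 8248 (46.6 percent) a batch 2 peak and 5091 (28.8 percent) peaks of both batches. At 1940 genes both batches had peaks that lay apart, 3907 genes had peaks of batch 1 alone, 3121 of batch 2 alone, and 5485 had none. A further detail of the rule is that 80 of the 3231 genes were reached by the merged region and not by a peak of each batch.

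How often a gene held a shared region went with its length. Over 10 classes of gene span of equal size, the share was 8.88, 10.6, 12.8, 10.9, 11.4, 13.1, 14.6, 17.4, 23.3 and 59.8 percent from the shortest to the longest class. Outside the longest class it was 13.7 percent. Within the longest class it went on climbing, to 37.8 percent for spans of 11559 to 16048 bp, 47.7 percent for 16069 to 23485 bp, 67.4 percent for 23487 to 41698 bp and 86.2 percent above that. Each gene list below is therefore set beside the share over all genes in the span class of its median gene, called like span here, with no test. A list that mixes long and short genes is matched by this at its median only. Among gene types, lncRNA genes held a shared region in 14.5% of cases (285 of 1959), antisense RNA genes in 14.3% (72 of 503), microRNA genes in 11.2% (29 of 260) and tRNA genes in 7.93% (23 of 290). The share was 3.72% for snoRNA genes (10 of 269), and none of 98 rRNA genes had one.

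Most genes with a shared region held 1 (2487 genes), 657 held 2 to 4 and 87 held 5 or more. Myo81F, a myosin gene in heterochromatin near the centromere (3R, 567076 to 2532932), held the most with 64, among 204 batch 1 peaks and 355 batch 2 peaks in its span of 1965857 bp. DIP-lambda followed with 25, Pzl, a gene related to the mechanosensitive channel gene Piezo, with 21, Ten-a with 21, and CG17684 and bru3 with 17 each. Per 100 kb of span, Ten-a held 7.20, DIP-lambda 6.59, bru3 6.04, CG17684 4.29, Myo81F 3.26 and Pzl 2.96. The count at Myo81F was thus the highest and its density among the lowest of the 6.

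The pathway in the title was taken up by role. Of 39 Wg/Wnt genes, 14 held a shared region (35.9%, 95% exact interval 21.2 to 52.8), beside 37.8 percent of all genes of like span, and 24 separate regions were involved. Long genes carried the count: 11 of 20 in the longest span class had a region and 3 of 19 others. At a q of 0.05 or lower in both batches 5 of the 39 were left (fz, dally, dlp, arm and pan), beside 7.42 percent of all genes, and at 0.001 or lower 2 (dally and dlp), beside 1.22 percent. These 2 shares are over genes of every length. In 10 genes both batches had peaks that lay apart, 10 had peaks of batch 1 alone, 4 of batch 2 alone, and Ror had none.

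Among ligand and secretion genes, 1 of 9 held a shared region (11.1%, 95% exact interval 0.281 to 48.2, beside 23.3 percent at like span). This was wls, whose product carries Wnt ligands to the cell surface (3L, 11167441 to 11168207, with Alg10). Dam-Simba1 coverage was 8.01 in batch 1 and 9.65 in batch 2, against a Dam background of 2.00 and 2.83 (3.00- and 2.78-fold). The ligand gene wg itself had no peak in batch 1 and 1 in batch 2.

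Among receptor and co-receptor genes, 5 of 9 held one (55.6%, below the 67.4 percent of all genes of like span): fz, fz2, arr, drl and Drl-2. At fz, the gene of the receptor Frizzled (3L, 14363006 to 14363465), Dam-Simba1 coverage was 21.1 and 30.7 against a Dam background of 3.60 and 12. The fold was 4.81 in batch 1 and 2.44 in batch 2. At fz2, the gene of a second Wg receptor (3L, 19232922 to 19233926), coverage was 8.01 and 4.39 against 0.999 and 1.74. At arr, the co-receptor gene (2R, 13468859 to 13469440), it was 17.5 and 12.3 against 4.00 and 5.44. The drl and Drl-2 genes encode Ryk-family receptors, of which drl acts in axon guidance by Wnt5. At drl (2L, 19208370 to 19208766) coverage was 6.56 and 16.7 against 1.44 and 7.07 (3.10- and 2.19-fold). At Drl-2 (2R, 13073123 to 13073724) it was 11.7 and 16.7 against 5.0 and 2.00, and the fold was 2.11 in batch 1 and 5.89 in batch 2.

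The 2 genes with a q of 0.001 or lower in both batches encode glypicans, cell surface proteoglycans that bind Wg outside the cell. At dally (3L, 8847475 to 8848004) Dam-Simba1 coverage was 20.4 and 16.7 against a Dam background of 4.00 and 3.81 (4.28- and 3.67-fold). At dlp (3L, 14662844 to 14663424, with lncRNA:CR45888) it was 16.0 and 15.8 against 4.00 and 2.56 (3.41- and 4.72-fold). The batches are on unlike scales, so near-equal coverage or Dam values at these 2 genes do not show equal signal. The fold went from 4.28 to 3.67 between the batches at dally, and from 3.41 to 4.72 at dlp. The dally gene held 4 shared regions in all. The other 2 extracellular genes, Notum and Swim, had peaks of both batches that lay apart.

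Of 9 destruction complex and kinase genes, 2 held a shared region (22.2%, close to the 23.3 percent at like span). At Apc, a scaffold of the complex (3R, 28836108 to 28836573), Dam-Simba1 coverage was 8.74 and 7.89 against a Dam background of 1.08 and 2.01. At sgg, the gene of the kinase GSK3 (X, 2642254 to 2642646), it was 5.83 and 4.39 against 1.00 and 2.23. Neither passed a q of 0.05 in both batches. Axn, gish and dco had peaks of both batches apart, and CkIalpha, dsh and slmb of batch 1 alone.

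Of 7 nuclear effector genes, 3 held one (42.9%, 95% exact interval 9.90 to 81.6, beside 23.3 percent at like span). At arm, which encodes beta-catenin (X, 1891204 to 1891581, with mRpL16), Dam-Simba1 coverage was 16.0 and 25.4 against a Dam background of 6.09 and 5.0 (2.40- and 4.41-fold). At pan, the TCF gene on chromosome 4 (103645 to 104169), it was 20.4 and 13.2 against 3.88 and 4.62 (4.39- and 2.52-fold), and pan held 4 shared regions. At gro, the gene of the co-repressor Groucho (3R, 26043250 to 26043782), it was 19.7 and 9.65 against 12 and 5.0. The gro region was the weakest of the 14 by rank, with 1.59- and 1.77-fold. At nkd, a feedback inhibitor of the pathway (3L, 19028741 to 19029358), coverage was 6.56 and 10.5 against 2.08 and 3.51.

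**Figure D4:**
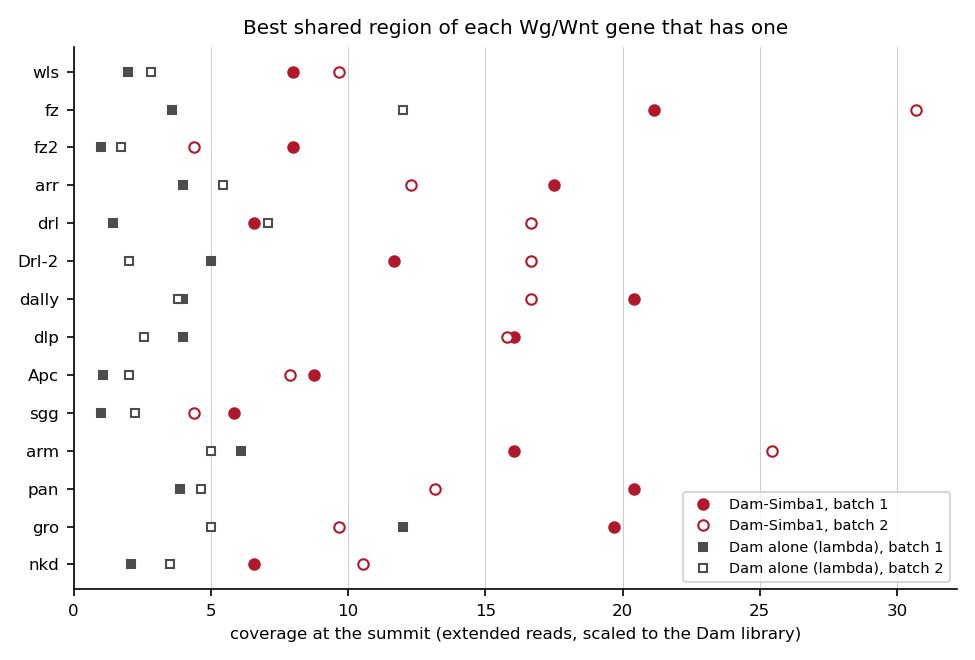
Coverage at the summit (extended reads, scaled to the Dam library) in the best shared region of each of the 14 Wg/Wnt genes that had one, ordered by role from secretion (top) to feedback (bottom), with circles for Dam-Simba1 and squares for Dam background lambda, filled for batch 1 and open for batch 2. The batches are on unlike scales, so each Dam-Simba1 value is to be read against the Dam value of its own batch. At dally and dlp the Dam-Simba1 values lie well to the right of these Dam values. At gro they lie closer (1.59- and 1.77-fold).

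Of 18 NSC identity and stemness genes, 3 held a shared region (16.7%, 95% exact interval 3.58 to 41.4, close to the 14.6 percent at like span): grh with 2, pros with 4 and l(1)sc with 1. At pros, whose homeodomain protein ends self-renewal in the daughter cell, the best region (3R, 11363135 to 11364421) had Dam-Simba1 coverage of 11.7 and 14.9 against a Dam background of 1.05 and 2.34 (6.17- and 4.77-fold). Its summits were 884 bp apart, so the batches peaked at different places within the region. At l(1)sc, a proneural gene, coverage was 13.8 and 10.5 against 6.0 and 6.0, and the batch 2 peak of that region did not itself reach the gene. The NSC factor genes dpn, ase and wor had a peak of batch 1 alone, klu had peaks of both batches apart, and insc, needed to orient the division, had peaks of batch 2 alone.

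Temporal factor genes, which give NSCs their succession of states, held a shared region at 9 of 15 (60.0%), beside 67.4 percent at like span. The highest were Eip93F (a steroid-induced factor; 16.0 and 15.8 for Dam-Simba1 against 5.0 and 4.00 for Dam, summits 5 bp apart), lin-28 (an RNA-binding protein), and svp and nub (transcription factors). Asymmetric division genes did so at 8 of 18 (44.4%), beside 47.7 percent, led by pros and then by numb, brat (a repressor of translation) and pins (a spindle orientation gene). At numb, whose product antagonises Notch in 1 daughter cell, Dam-Simba1 coverage was 16.8 and 28.95 against a Dam background of 5.0 and 7.62. Genes of NSC quiescence and reactivation did so at 4 of 19 (21.1%, beside 23.3 percent): mahj, fz2, daw (a TGF-beta family ligand) and shot (a linker of actin and microtubules). At mahj, a partner of the CRL4 ubiquitin ligase (2R, 21628287 to 21628615), coverage was 25.5 and 20.2 against 5.0 and 5.17 (4.42- and 3.43-fold), with summits 12 bp apart. It was the 1 gene of this list with a q of 0.001 or lower in both batches.

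Lists of growth and signalling genes lay between 26.7% and 38.5%. Insulin, PI3K and TOR genes held a shared region at 8 of 28 (28.6%, beside 23.3 percent at like span). They were 3 of 8 genes in the longest span class (beside 47.7 percent at the median span of those 8). The others were 5 of 20 (beside 13.7 percent of all genes outside that class). Here and below, this 13.7 percent pools span classes with shares from 8.88 to 23.3 percent. It is not matched to the span of the genes beside it. Ilp1 and Ilp2, neighbouring genes of insulin-like peptides, were reached by a single region (3L, 9798931 to 9799570). There Dam-Simba1 coverage was 21.9 and 15.8 against a Dam background of 7.0 and 3.81. The InR region, in the insulin receptor gene, had 27.7 and 18.4 against 3.19 and 9.25, so that its fold of 6.85 in batch 1 stood beside 1.90 in batch 2. The third highest of the list was sima, the gene of the hypoxia factor HIF-alpha, with 6.56 and 11.4 against 1.11 and 2.00.

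Notch pathway genes held a shared region at 5 of 13 (38.5%, beside 47.7 percent at like span), headed by numb, then kuz (a metalloprotease that cleaves Notch), Delta (its ligand) and mam (its co-activator). At kuz Dam-Simba1 coverage was 16.0 and 19.3 against a Dam background of 1.00 and 9.0, and the fold was 8.51 in batch 1 and 2.03 in batch 2. EGFR and Ras genes did so at 5 of 18 (27.8%, beside 23.3 percent), headed by Raf (a kinase), sty and aop (an inhibitor and a repressor of the pathway) and Egfr (the receptor). All 5 were among the 9 genes of the longest span class, beside 67.4 percent at the median span of those 9. None of the 9 others had one, beside 13.7 percent of all genes outside that class. Hedgehog and Dpp genes held a shared region at 7 of 19 (36.8%, beside 23.3 percent), headed by ci (the Hedgehog effector), sax (a receptor), dpp (the BMP ligand) and Mad (its effector). Of these, 5 were among 8 genes of the longest class (beside 47.7 percent) and 2 among 11 others (beside 13.7 percent). Hippo pathway genes held one at 4 of 15 (26.7%, beside 47.7 percent): ft and ds (a pair of giant cadherins), crb (an apical polarity gene) and dachs (a myosin gene). All 4 were among the 8 genes of the longest span class, beside 47.7 percent at the median span of those 8. None of the 7 others had one, beside 13.7 percent outside that class. None of the 4 passed a q of 0.05 in both batches.

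Hormone and G protein genes held a shared region at 6 of 18 (33.3%, beside 23.3 percent at like span). After smog came Ptth, the gene of the neuropeptide that drives steroid release for moulting, which shares its best region with Ipk2 and cold (2L, 574262 to 574810). Dam-Simba1 coverage there was 48.1 and 35.1, among the highest of the shared regions named here, against a Dam background of 7.76 and 14.0. The next were cta and Galphaq, genes of G protein alpha subunits.

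Cell cycle genes held a shared region at 6 of 25 (24.0%, beside 14.6 percent at like span), headed by E2f2 (a repressor of cell cycle genes), dup (a replication licensing factor), twe (a Cdc25 phosphatase) and E2f1. At E2f1, the gene of the factor that drives entry into S phase, Dam-Simba1 coverage was 8.01 and 17.5 against a Dam background of 2.00 and 2.47. Chromatin regulator genes did so at 6 of 28 (21.4%, beside 17.4 percent). They were headed by the Polycomb group genes pho and E(z), by Mi-2, which encodes a nucleosome remodeller, and by ash2, which encodes a subunit of histone methyltransferase complexes. Of the 28, pho alone had a q of 0.05 or lower in both batches, beside 7.42 percent of all genes. The fold was 1.57 in batch 1 and 5.07 in batch 2 at E(z), and 1.66 and 2.95 at Mi-2. Hox genes, which set segment identity, held a shared region at 3 of 8 (37.5%, beside 67.4 percent): Ubx, abd-A and pb. Cytoskeleton genes did so at 3 of 15 (20%, beside 17.4 percent): Moe, shot and Rac1, with no gene of either list at a q of 0.05 or lower in both batches.

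The 4 highest shares, from 71.9% to 82.4%, were in lists whose genes are long, beside 67.4 or 86.2 percent for all genes of like span. RNA-binding protein genes held a shared region at 14 of 17 (82.4%, beside 86.2 percent at like span), headed by bru1, mub, ps and sm. Axon guidance and adhesion genes did so at 32 of 40 (80.0%, beside 86.2 percent), headed by Nrt, Ten-a, Lar (a receptor phosphatase) and CadN. Genes of neuronal function did so at 24 of 30 (80.0%, beside 67.4 percent), headed by nAChRalpha6, Vmat (the vesicular monoamine transporter), nAChRalpha3 and nAChRalpha5. Dpr and DIP genes, whose products pair on the surfaces of synaptic partners, did so at 23 of 32 (71.9%, beside 67.4 percent), headed by dpr8, DIP-theta, DIP-lambda and dpr11. In the longest span class, 19 of 21 neuronal function genes had a region, beside 86.2 percent at the median span of those 21. There 20 of 24 Dpr and DIP genes had one, beside 67.4 percent. Of the shorter neuronal and Dpr or DIP genes, 5 of 9 and 3 of 8 had one, beside 13.7 percent outside that class.

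Some of the best regions in these lists were uneven between the batches and others were not. At ps, the gene of a splicing factor, Dam-Simba1 coverage was 29.1 and 21.1 against a Dam background of 3.43 and 6.26 (6.80- and 3.04-fold). At dpr8 it was 14.6 and 7.02 against 0.554 and 1.06 (10.02- and 3.89-fold). CadN, the gene of N-cadherin, was even in fold, with 21.1 and 24.6 against 6.0 and 7.0 (3.16- and 3.20-fold), and held 10 shared regions. At mub, which encodes a KH domain protein that binds RNA, the values were 27.0 and 19.3 against 5.0 and 4.62.

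Genes of cells other than NSCs were shared too. Glial genes held a shared region at 6 of 15 (40%, beside 23.3 percent at like span), headed by cold, Nrx-IV, loco and Indy. At Nrx-IV, a septate junction gene, Dam-Simba1 coverage was 23.3 and 26.3 against a Dam background of 7.75 and 7.89. The glial markers repo and gcm had peaks of both batches apart and moody had none. Muscle genes did so at 3 of 13 (23.1%, beside 23.3 percent): bt, Tm1 (tropomyosin) and sls (a titin-like protein).

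The last 3 lists hold short genes. Odorant receptor genes held a shared region at 12 of 60 (20%, 95% exact interval 10.8 to 32.3, beside 11.4 percent at like span), and gustatory receptor genes at 4 of 60 (6.67%, 1.85 to 16.2, beside 11.4 percent). A single region served Or33b and Or33c (2L, 11937512 to 11937946), with Dam-Simba1 coverage of 10.9 and 17.5 against a Dam background of 1.11 and 3.26. Or69a and Or30a followed, and the gustatory genes were Gr21a, Gr61a, Gr68a and Gr28b. Ribosomal protein genes did so at 10 of 85 (11.8%, beside 11.4 percent), among them RpS15Ab, RpL31 and RpL40. The odorant and gustatory shares differed, but their intervals overlapped and the difference was not tested.

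**Figure D5:**
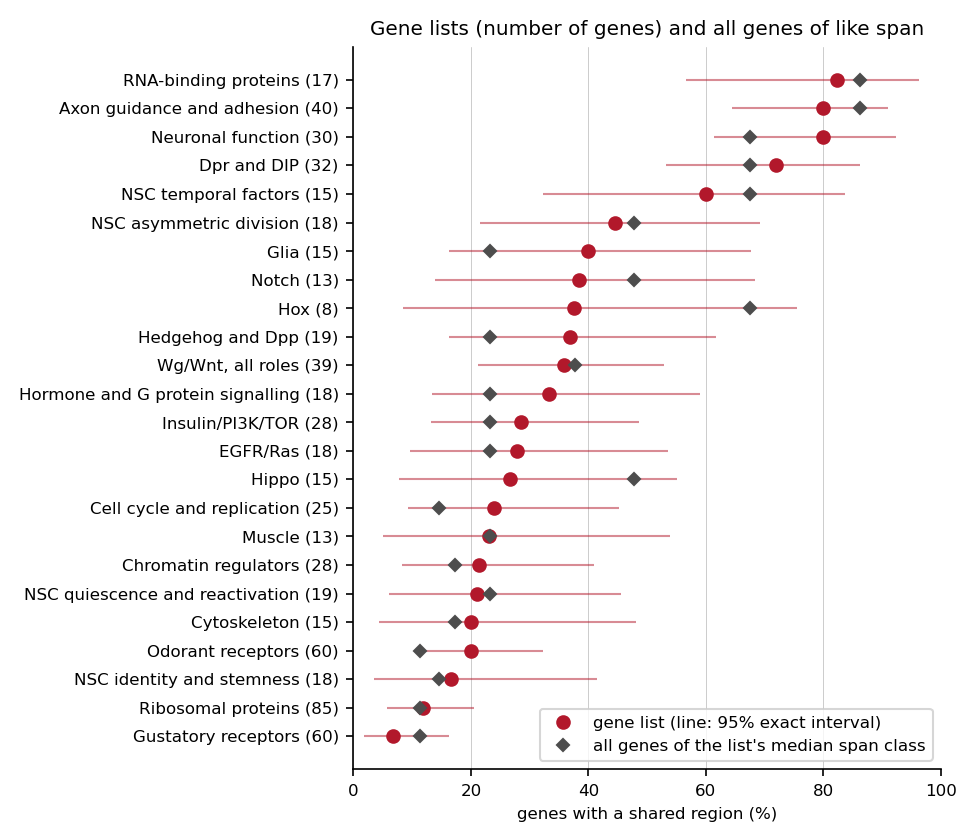
Percent of the genes of each list with a shared region (circles, with lines for the 95% exact Clopper-Pearson interval, which covers counting error only) and percent of all genes in the span class of the list's median gene (diamonds), with the number of genes in brackets. Lists run from 82.4% (RNA-binding proteins) to 6.67% (gustatory receptors), and the diamonds range from 86.2 to 11.4 percent.

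What each batch held alone was the larger part of each list: 12309 peaks in batch 1 and 15466 in batch 2. In batch 1, peaks in shared regions and peaks alone were alike. The median Dam-Simba1 coverage was 8.74 in both, the Dam background 2.00 in shared and 2.16 in lone peaks, and the fold 3.05 and 2.91. In batch 2, peaks in shared regions were longer than lone peaks (median 427 against 370.5 bp) and higher in Dam-Simba1 coverage (11.4 against 8.77). They were higher in Dam background as well (3.26 against 2.42), and the fold was 2.66 in shared and 2.67 in lone peaks. A q of 0.001 or lower was reached by 25.2% of shared and 23.0% of lone peaks in batch 1, and by 13.6% of shared and 7.89% of lone peaks in batch 2. A gene was reached by 75.6% of shared and 79.3% of lone peaks in batch 1, and by 75.4% and 73.0% in batch 2. The median lone peak was 2649 bp (batch 1) or 3027.5 bp (batch 2) from the nearest peak of the other batch, and 12.5% and 10.5% had one within 500 bp. The batches differed in depth, in list length and in their Dam library, and the part of each in what was found alone was not tested.

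The strongest peak of batch 1 alone reached Raf, lncRNA:CR33218 and Ilp6, the gene of an insulin-like peptide made in fat body and glia (X, 2330582 to 2331360). Its Dam-Simba1 coverage was 42.3 against a Dam background of 5.0, or 7.21-fold, with no batch 2 peak within 3848 bp. The next 4 were at Lgr1, a gene of a glycoprotein hormone receptor, with CG14321 (6.60-fold), between genes on 3R from 29575378 (8.96-fold), at CG10510 and CG10508 (7.29-fold), and at Mid1 (5.27-fold). These 5 lone peaks had 45 to 72 reads at the summit, beside 13 to 69 batch 1 reads in the 20 highest shared regions.

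Batch 2 alone held 4 peaks whose folds stood far above those of every other peak on the arms in its list. At CG17698 (3L, 23736822 to 23738034) Dam-Simba1 coverage was 476.3 against a Dam background of 2.50, or 136-fold. In Myo81F it was 357.9 against 1.00 (3R, 1905909 to 1906930; 179-fold) and 175.4 against 1.00 (3R, 1909363 to 1910138; 88.2-fold). On 3L from 24579109 to 24579734, with no gene, it was 171.05 against 1.12 (81.3-fold). None of these 4 overlapped a peak of the other 3 fusion lists, including the Dam-Simba2 list called against the same Dam library. The next highest fold of a batch 2 peak alone was 11.1, and the highest of a batch 1 peak alone was 11.7. The fifth peak of batch 2 alone by q was at CG30015 (2R, 10844855 to 10845917; 9.60-fold).

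The Dam-Simba2 lists were called against the same Dam libraries, so overlap with them is not independent. Of the 4489 shared regions, 2427 (54.1%) overlapped a Dam-Simba2 peak in both batches, 755 (16.8%) in batch 1 alone, 710 (15.8%) in batch 2 alone and 597 (13.3%) in neither. The same overlap was not computed for Dam-Simba1 peaks of 1 batch alone. These shares are therefore a description and not a trait of the shared regions.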

How the data were processed

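Genomic DNA was cut with DpnI, amplified by PCR and sequenced as paired reads of 250 bp, per the labels' protocols. Bowtie2 and dm6 are named in the submitters' processing notes, with bcl2fastq 2.19.0.316, FastQC and ChIPseeker. The authors ran MACS 3.0.0 on each fusion library with the Dam library of the same batch as control, per the file headers, in single-read mode, keeping at most 1 tag per position, with a q limit of 1 and an effective genome size of 2910000000 bp. That size is far above the fly genome and lowers the smallest possible background. The file headers give windows of 1000 and 10000 bp for the local background. Which window set the lambda of a given peak was not traced.

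The pileup signal in the deposited lists is summit coverage after scaling to the Dam library. The authors' MACS run also gave the deposited −log10 p and −log10 q. The deposited fold enrichment is the ratio of pileup plus 1 to lambda plus 1. Lambda was recovered from it, and the Poisson p computed from it was within 0.01 of the deposited −log10 p at 99.3% (batch 1) and 99.8% (batch 2) of peaks. Pileups divided by the scale were whole reads (within 0.02) at 100% of peaks.

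Peaks were overlapped and assigned to genes with Python 3.11.15, numpy 2.4.6, pandas 2.3.3 and scipy 1.17.1, and the steps were tested on simulated intervals. Genes were the spans of the RefSeq table of dm6 plus 1 kb. Of 636 list symbols in 29 lists, 634 matched. The members, lists and rules were chosen with earlier results of these data known. Named were grh; the 20 regions of highest mean −log10 q percentile; the 5 widest; the 5 genes with most shared regions (6, with a tie); every Wg/Wnt gene with a region; up to 4 genes per other list by rank (1 of them is not reported here); the 5 strongest peaks of each batch alone; and the 10 genes with the closest summits at a q of 0.001 or lower. Other genes named are members of a list or were chosen after their values were seen. Intervals are exact (Clopper-Pearson, or Poisson for reads) and cover counting error only, since amplified reads are not independent molecules. Samples were grouped by the labels. Alternatives were q limits, stricter overlap, equal list length, no flank, protein-coding genes, each batch alone, and a raised lambda. The Simba1 locus and exons were not analysed here.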

Additional observations from a re-analysis of the deposited data

Results flagged for a closer look

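Peaks outside the 6 arms were not used in the comparisons above, and both Dam-Simba1 lists hold some above the Dam background. Batch 1 has 417 such peaks, 169 of them on Y, with 86 at a q of 0.001 or lower. The highest fold among them was 10.1, on Y, where Dam-Simba1 coverage was 19.7 against a Dam background of 1.05. Batch 2 has 1024 such peaks, 365 of them on Y, with 125 at a q of 0.001 or lower. The highest fold there was 190.1, on an unplaced scaffold, where Dam-Simba1 coverage was 220.2 against a Dam background of 0.163. No peak of either list on the mitochondrial genome exceeded 6.48-fold (7 peaks in batch 1 and 6 in batch 2).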

How the results depend on the processing

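The 4489 regions, 3231 genes and 14 Wg/Wnt genes depended on the q limit: 1428, 1312 and 5 at 0.05 or lower in each batch, and 194, 215 and 2 at 0.001 or lower. The shares of peaks in shared regions (batches 1 and 2) were then 14.1% and 17.1%, and 4.89% and 10.6%, with median widths of 597.5 and 664.5 bp and summit distances of 70 and 55.5 bp. Overlap of 50% of the shorter peak gave shares of 25.2% and 21.2% and a summit distance of 85 bp. Summits within 250 bp gave 22.5% and 18.9%, a width of 554 bp and a distance of 72 bp. Lists of equal length gave 22.9% for batch 1. Lambda raised to the arm average, chosen after seeing the data, gave 21.6% for batch 2 and a distance of 88 bp. Under these last 4 the regions (3780 to 4218), genes (2822 to 3108) and Wg/Wnt genes (12 to 14) stayed within 1.5 times their counts, as did genes without flanks (2348) and protein-coding genes (2757). Leaving out a batch leaves genes with a peak of the other: 8248 to 9042 genes and 28 to 34 Wg/Wnt genes. At a q of 0.05 or lower, 18 of the 23 other lists moved by more than 1.5 times. The causes were not tested. No paired analysis was possible because the lists hold Dam values only at peaks that the same contrast had chosen, each already set against the Dam library of its batch. A median of 12 to 13 Dam-Simba1 reads per summit limits every single region, as does the thinner Dam background. Of shared peaks, 42.2% (batch 1) and 34.6% (batch 2) had a lambda below the arm average.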
